A study of Mus musculus with 16 samples.

Results

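This report follows 34 mouse genes of the lysosome and of autophagy across 8 groups of fibroblasts. The genes were taken from a list of symbols chosen with earlier results of these data known. It holds 13 lysosomal hydrolases and their activators, 5 lysosomal membrane and transport proteins, 4 subunits of the lysosomal proton pump, 5 TFE transcription factors and their regulators, and 7 autophagy genes. All 34 of 34 were in the table of 21671 genes and reached 1 RPKM in at least 2 libraries, as did 13028 genes in all. RPKM is a read count divided by the gene's length in kilobases and by the library's depth in M (mega) reads. The cells were serum-starved mouse embryonic fibroblasts, all expressing MycER, a form of Myc that 4-hydroxytamoxifen (OHT) switches on. The cells labelled YAP2S are also described as expressing YAPS127/381A, a mutant of the co-activator YAP, and those labelled MycER are described by MycER alone. Both populations were sampled with 400 nM OHT, with 50 µM Y27632 (Y27, an inhibitor of the kinase ROCK), with both compounds and with neither. That makes 8 groups of 2 libraries, 16 in all: YAP2S OHT Y27, YAP2S OHT, YAP2S Y27, YAP2S, MycER OHT Y27, MycER OHT, MycER Y27 and MycER. Nothing in the labels says whether replicates were separate cultures, so that the tests measure the spread between these libraries, which may be technical. The promoter behind either transgene is not given in the labels.

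Lysosomes break down proteins, lipids and sugars delivered by endocytosis and by autophagy, the process in which a membrane closes around cytoplasm and fuses with the lysosome. Their hydrolases work in acid, which a proton pump, the V-ATPase, provides. Many of these genes are transcribed by TFEB, TFE3 and MITF, related factors that bind E-box sequences and that the kinase mTORC1 keeps in the cytoplasm while nutrients are plentiful. Folliculin (Flcn) and its partner Fnip1 act on the Rag GTPases through which mTORC1 reaches these factors.

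Groups are named by their labels, and those with OHT call for caution. Bex1, a gene that separates the populations without OHT, had 16 to 20.0 RPKM in the 4 YAP2S libraries without OHT, against 0 to 0.490 RPKM in the 4 MycER ones. With OHT it had 0.123 to 1.01 RPKM in the 4 libraries labelled YAP2S, against 7.49 to 19.8 RPKM in the 4 labelled MycER. Ctgf, a YAP target, had 11.3 and 14.0 RPKM in MycER Y27 libraries, against 170.9 and 139.3 RPKM in MycER libraries. By contrast it had 145.0 and 154.9 RPKM in the libraries labelled MycER OHT Y27, against 67.1 and 60.8 RPKM in those labelled MycER OHT. These genes thus go against the labels, and every result with OHT is one of libraries so labelled. Yap1 does not tell the populations apart, at 17 to 30.6 RPKM in the 16 libraries. Of 12 fibroblast markers 8 were tested, and the summed level of the list was 467.4 to 1574.7 RPKM. Vim, Col1a1, S100a4 and Fn1 had the highest medians. Pdgfra, Thy1, Lum and Fap reached no more than 0.385, 0.367, 0.0383 and 0.907 RPKM, so that not all of the list goes with the label. Depth was 1.76 to 15.71 M reads, an 8.91-fold range, lowest in MycER replicate 1, and the lowest member value rested on 5 reads.

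The E-box that TFE factors bind has a short symmetric core, CACGTG, and binding is strongest where it is flanked as TCACGTGA. RefSeq gives windows from 250 bases before to 50 bases after the start for 30 of the 34 genes, on GRCm38.p6. These were matched by symbol, and each motif reads alike on both strands. CACGTG was in 11 of the 30 windows (36.7%), against 11.7% of the 9524 tested genes with a window and 7.15% of all 32851 windows. The longer TCACGTGA, which contains it, was in 6 of the 30 (20.0%), against 2.18% and 0.974%. TCACGTGA with a G before it and a C after it was in 0 of the 30, against 0.798% and 0.326%. A match is a description of these letters and not evidence of a bound site or of which factor would bind it. The sites with TCACGTGA are shown because 5 of their 6 genes are among those that Y27 raised. Each is 30 bases, 5′ to 3′ on the strand of its gene, with the motif in capitals.
Gla (alpha-galactosidase), chrX:134601215-134601244, minus strand: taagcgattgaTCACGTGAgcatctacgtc
Gla, chrX:134601182-134601211, minus strand: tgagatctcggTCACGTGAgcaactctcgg
Ctsa (cathepsin A), chr2:164833749-164833778, plus strand: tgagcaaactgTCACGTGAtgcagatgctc
Ctsa, chr2:164833766-164833795, plus strand: gatgcagatgcTCACGTGAccagagctaca
Ctsd (cathepsin D), chr7:142387908-142387937, minus strand: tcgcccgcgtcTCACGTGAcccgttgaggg
Mcoln1 (mucolipin-1), chr8:3500462-3500491, plus strand: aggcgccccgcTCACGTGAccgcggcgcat
Atp6v0d1 (V-ATPase), chr8:105566050-105566079, minus strand: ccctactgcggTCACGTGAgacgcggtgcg
Atp6v1a (V-ATPase), chr16:44139373-44139402, minus strand: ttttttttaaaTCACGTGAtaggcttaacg
Gla and Ctsa thus each hold a pair of these sites. Counted from 0 at the base that follows the 250, the motifs of Gla begin at -228 and -195, and that of Atp6v0d1 runs from -4 to 3.

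In MycER cells without OHT, Y27 raised 16 of the 34 genes and lowered 0. Of all 13028 genes tested, 13.4% were called higher and 4.47% lower. A gene is called where the adjusted p of limma is below 0.05. An unadjusted p below that value was found for 21 of the 34 and for 4359 of all 13028 genes. The median log2 change of the 34 was 0.44, against 0.12 over all genes. The calls comprised 6 of 13 hydrolases, 2 of 5 membrane proteins, 2 of 4 pump subunits, 4 of 5 TFE factors and regulators and 2 of 7 autophagy genes. Of the 16, 13 were also called higher in every scaling, that is as deposited, after quantile normalization, after cyclic loess and by voom on reads corrected for duplicates, which 6.19% of all genes were. Gusb, Tfe3 and Uvrag were called as deposited but not in every scaling.

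**Figure D1:**
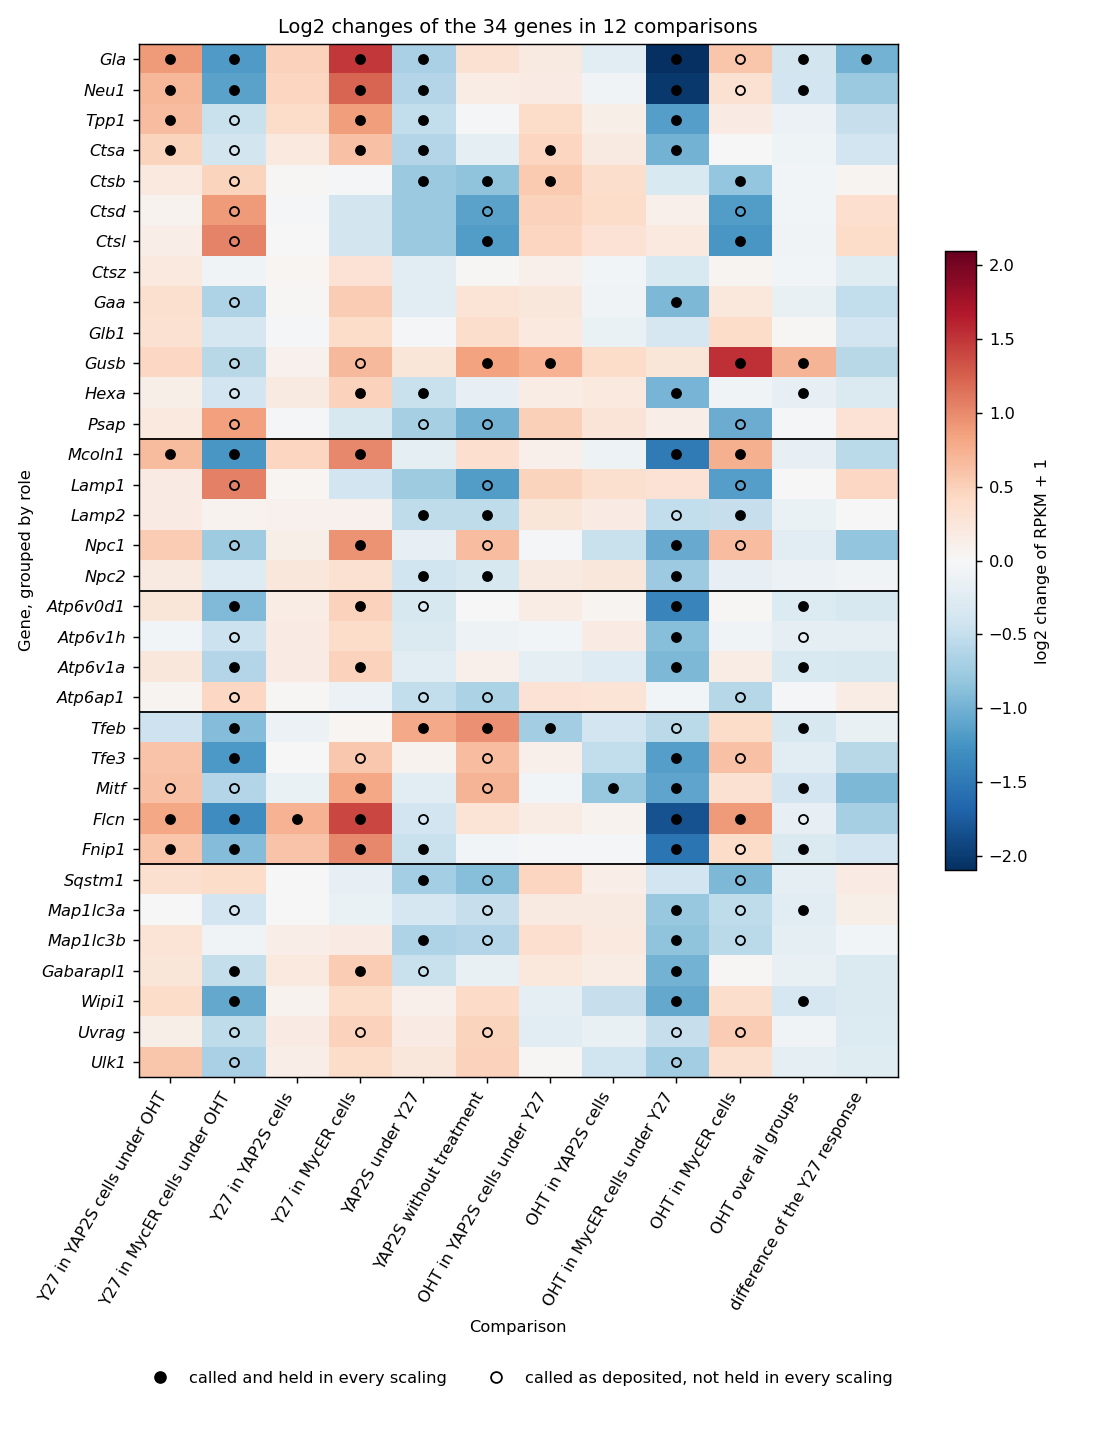
Log2 changes of RPKM + 1 (colour) of the 34 genes (rows, by role) in 12 comparisons (columns), with a filled circle for a call held in every scaling and an open circle for another call. Y27 in MycER cells has 16 calls, all higher, while OHT in MycER cells under Y27 has 24, all lower, as labelled.

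Among the hydrolases, Gla, which cleaves galactose from glycolipids, had 34.7 and 35.2 RPKM in MycER Y27 libraries, against 10.7 and 13.1 RPKM in MycER libraries. That is a log2 change of 1.49 ± 0.12 (SE, here and below from variance pooled over all 16 libraries), a fold of 2.81 (adjusted p = 1.21e-05). Neu1, the lysosomal sialidase, had 34.9 and 32.1 RPKM in MycER Y27 libraries, against 12.8 and 14.8 RPKM in MycER libraries (log2 change 1.22 ± 0.11, adjusted p = 2.8e-05). Groups did not overlap for either gene. Tpp1, a tripeptidyl peptidase, had 39.7 and 36.6 RPKM with Y27, against 17.8 and 23.5 RPKM without it (0.87 ± 0.13, adjusted p = 0.000815). Smaller rises that held in every scaling were those of Ctsa, a carboxypeptidase that also protects Neu1, at 0.61 ± 0.11, and of Hexa, a hexosaminidase subunit, at 0.49 ± 0.10. The cathepsins Ctsb, Ctsd, Ctsl and Ctsz and the enzymes Gaa and Glb1 were not called, nor was Psap, the precursor of the saposins that activate lipid hydrolases.

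At the lysosomal membrane, Mcoln1, a calcium channel that is a known TFEB target, had 29.1 and 31.3 RPKM in MycER Y27 libraries, against 12.5 and 16.9 RPKM in MycER libraries (log2 change 1.01 ± 0.15, adjusted p = 0.000901). The cholesterol exporter Npc1 had 18.3 and 20.7 RPKM in MycER Y27 libraries, against 7.95 and 11.5 RPKM in MycER libraries (0.95 ± 0.17, adjusted p = 0.00264). Both were higher in each Y27 library than in each library without it. Lamp1 and Lamp2, the abundant glycoproteins of that membrane, and Npc2, the luminal partner of Npc1, were not called. Of the pump, Atp6v0d1 rose by 0.48 ± 0.09 (adjusted p = 0.00288) and Atp6v1a, the catalytic subunit, by 0.49 ± 0.11 (adjusted p = 0.012), on the log2 scale.

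The regulators moved with these genes. Flcn had 49.9 and 52.0 RPKM in MycER Y27 libraries, against 20.6 and 16.7 RPKM in MycER libraries, a log2 change of 1.41 ± 0.10 and the smallest adjusted p among the 34 (6.19e-06). Fnip1 had 50.3 and 42.9 RPKM in MycER Y27 libraries, against 22.3 and 22.8 RPKM in MycER libraries (1.01 ± 0.14, adjusted p = 0.000597). The partners thus rose together, with folds of 2.66 and 2.02, and groups did not overlap for either. Among autophagy genes, Gabarapl1, a homologue of LC3 that coats autophagosomes, had 102.6 and 84.8 RPKM in MycER Y27 libraries, against 60.7 and 68.4 RPKM in MycER libraries (0.53 ± 0.12, adjusted p = 0.00956). Sqstm1, the cargo receptor p62, was not called, nor were Map1lc3a, Map1lc3b, Wipi1 and Ulk1.

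**Figure D2:**
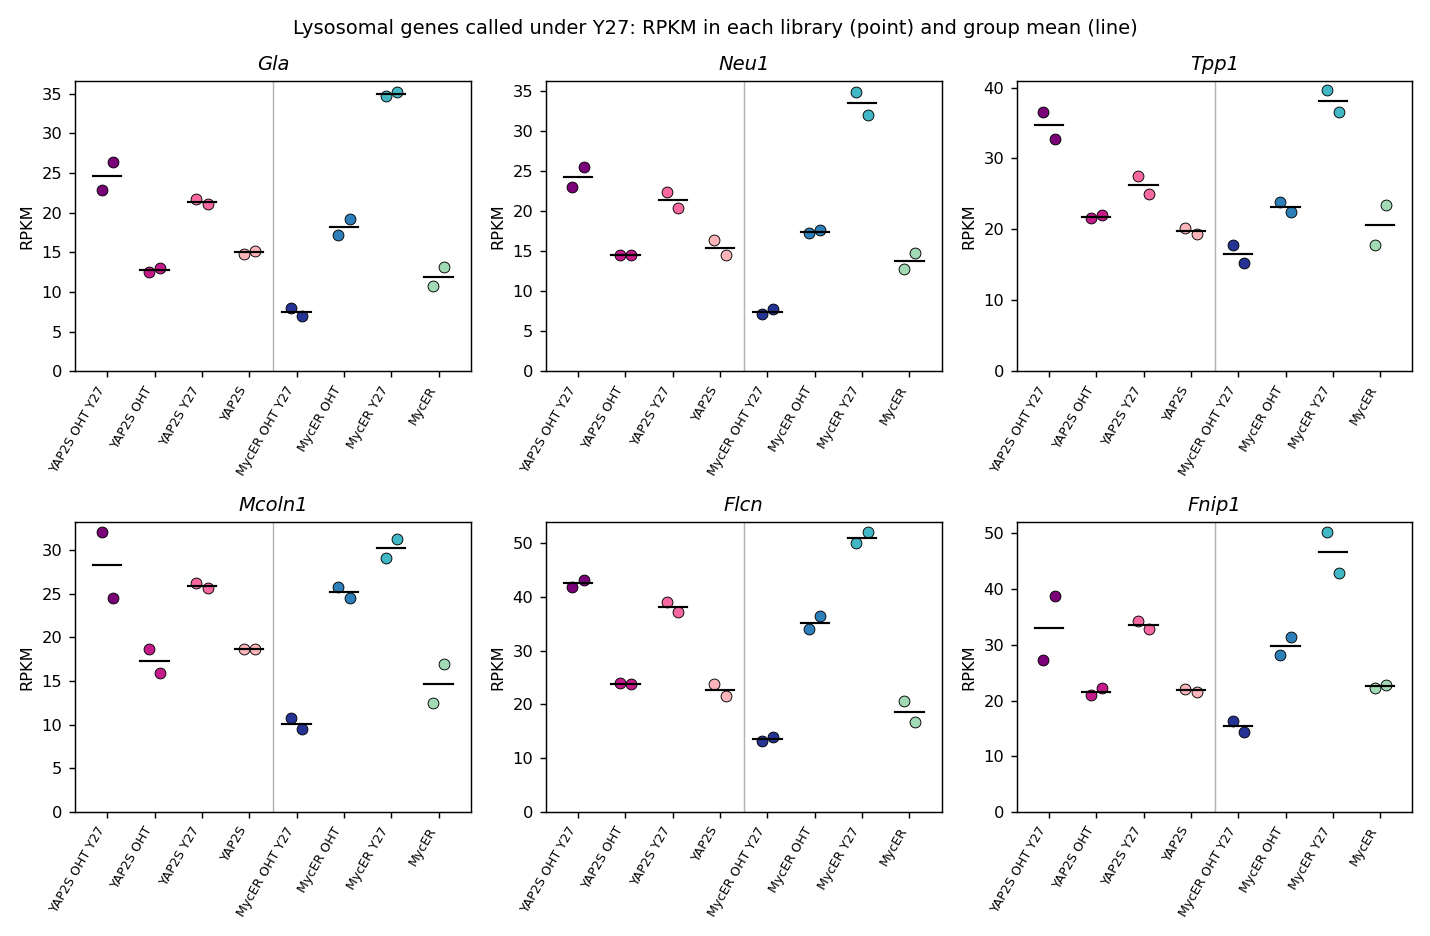
RPKM (vertical axes, from 0) of Gla, Neu1, Tpp1, Mcoln1, Flcn and Fnip1 in each library (points) by labelled group (horizontal axes), with lines for group means. MycER Y27 libraries of Gla, at 34.7 and 35.2 RPKM, lie above the other 14, and MycER OHT Y27 libraries, at 8.0 and 6.92 RPKM, below them.

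Genes with TCACGTGA in their window were called higher in 5 of 6 cases among the 34 (83.3%), with Ctsd the exception, and those with a window that lacks it in 10 of 24 (41.7%). Over all tested genes the shares were 65 of 208 (31.2%) and 1247 of 9316 (13.4%), given as a description.

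The count of 16 depended on single MycER libraries. The number called over all genes moved too when a library was left out, here and below. Without MycER replicate 1, the shallowest, the median log2 change of the 34 was 0.36, against 0.03 over all genes. Without MycER replicate 2 the medians were 0.57 and 0.23, and some of the calls were lower. The change was above 0 for 24 of the 34 in that fit, for 31 without MycER replicate 1 and for 26 in the full fit. When the fit held no OHT library, 14 of the 34 were called, all higher, beside 1375 higher of all 13028 genes. With only the 4 libraries compared 0 of the 34 were called, as were 0 of all genes. The summed level of markers of macrophages, cells rich in lysosomes, moved the same way. It was 44.6 and 53.1 RPKM at its lowest and highest in MycER Y27 libraries, against 14.2 and 27.9 RPKM in MycER libraries. Of 10 such markers 5 were tested. The sum, here and below, rests mostly on Cd14, at 6.37 to 44.9 RPKM over the 16 libraries, and then Cd68, at 3.81 to 10.7 RPKM. Itgam, Laptm5 and Ctss reached no more than 0.396, 0.127 and 0.234 RPKM. The defining markers Ptprc and Emr1 reached no more than 0.109 and 0.0236 RPKM in any of the 16 libraries, and the part of the other markers in the result was not tested.

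In YAP2S cells without OHT, Y27 raised 1 of the 34 genes, Flcn, and lowered 0, where 0.407% of all genes were called higher and 0.261% lower. Flcn had 39.1 and 37.1 RPKM in YAP2S Y27 libraries, against 23.7 and 21.6 RPKM in YAP2S libraries (log2 change 0.73 ± 0.10, adjusted p = 0.00697), and this held in every scaling, as 0.361% of all genes did. The median change of the 34 was 0.11, against 0.00 over all genes. An unadjusted p below 0.05 was found for 6 of the 34 and for 1089 of all 13028 genes. Gla, at 21.7 and 21.1 RPKM in YAP2S Y27 libraries and 14.8 and 15.2 RPKM in YAP2S libraries, did not pass the test, and nor did Fnip1, at 34.2 and 32.8 RPKM in YAP2S Y27 libraries and 22.1 and 21.5 RPKM in YAP2S libraries. Groups did not overlap for these genes. Flcn was not called without YAP2S replicate 1, YAP2S replicate 2, YAP2S Y27 replicate 1 or YAP2S Y27 replicate 2, each of which left a count of 0. Leaving out MycER replicate 1, MycER replicate 2, YAP2S OHT Y27 replicate 1 or YAP2S OHT Y27 replicate 2, which are not among the libraries compared, gave a count of 2 each.

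Whether the response to Y27 differed between the populations was tested as an interaction. Of the 34 genes 1 was called, Gla, whose change was lower in YAP2S than in MycER cells by 1.0 on the log2 scale (difference -1.0, 95% interval -1.37 to -0.63, adjusted p = 0.0239). Over all genes 0.207% were called lower and 0.361% higher. The call held in every scaling, as 0.0614% of all genes did. The difference was below 0 for 25 of the 34 genes, with a median of -0.30 against -0.13 over all genes. An unadjusted p below 0.05 was found for 11 of the 34 and for 1620 of all 13028 genes. Neu1 (difference -0.78, interval -1.12 to -0.44, adjusted p = 0.0546) and Flcn (-0.69, interval -1.01 to -0.37, adjusted p = 0.0703) did not pass over all genes. The count was 13 without MycER replicate 2, 3 without YAP2S OHT Y27 replicate 1 or YAP2S OHT Y27 replicate 2, and 2 without MycER replicate 1. It was 0 without any 1 of MycER Y27 replicate 1, MycER Y27 replicate 2, YAP2S replicate 1, YAP2S replicate 2, YAP2S Y27 replicate 1 and YAP2S Y27 replicate 2, and 0 when no OHT library was fitted.

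Under OHT the libraries labelled YAP2S and MycER went opposite ways with Y27, as labelled, and so did Ctgf. It had 17.8 and 16 RPKM in libraries labelled YAP2S OHT Y27, against 103.4 and 118.4 RPKM in those labelled YAP2S OHT, and 145.0 and 154.9 RPKM in libraries labelled MycER OHT Y27, against 67.1 and 60.8 RPKM in those labelled MycER OHT. Without OHT its level was lower with Y27 in both populations, with 64.3 and 60.6 RPKM in YAP2S Y27 libraries, against 94.8 and 93.1 RPKM in YAP2S libraries. The Y27 label of the MycER OHT groups is therefore in doubt, and the sign of their comparison, and with it the opposition, rests on that label. In those labelled YAP2S, 8 of the 34 genes were higher and 0 lower, where 4.97% of all genes were higher and 6.4% lower, and 7 of the 8 held in every scaling, as 4.71% of all genes did. They were Gla, Neu1, Tpp1, Ctsa, Mcoln1, Flcn and Fnip1, with Mitf called as deposited. Gla had 22.9 and 26.4 RPKM in libraries labelled YAP2S OHT Y27, against 12.5 and 13 RPKM in those labelled YAP2S OHT (log2 change 0.90 ± 0.12, adjusted p = 0.000554). Flcn had 41.9 and 43.2 RPKM in libraries labelled YAP2S OHT Y27, against 23.9 and 23.8 RPKM in those labelled YAP2S OHT (0.81 ± 0.10, adjusted p = 0.000416). All 8 were also called higher with Y27 in MycER cells without OHT, and the share of all genes called in both was not counted. The count was 13 without MycER replicate 2, 4 without YAP2S OHT replicate 1, 3 without YAP2S OHT replicate 2 and 4 without YAP2S OHT Y27 replicate 1.

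In libraries labelled MycER, Y27 under OHT gave 22 lower and 6 higher of the 34, where 36.4% of all genes were lower and 10.5% higher. Of the 22 lower, 11 held in every scaling (11.7% of all genes), and of the 6 higher 0 did (5.79%). Those 11 were Gla, Neu1, Mcoln1, Atp6v0d1, Atp6v1a, Tfeb, Tfe3, Flcn, Fnip1, Gabarapl1 and Wipi1, the last a protein that binds the growing autophagosome. Flcn had 13.2 and 14.0 RPKM in libraries labelled MycER OHT Y27, against 34 and 36.4 RPKM in those labelled MycER OHT (log2 change -1.31 ± 0.10, adjusted p = 5.36e-05). Gla, with 8.0 and 6.92 RPKM in libraries labelled MycER OHT Y27, against 17.2 and 19.2 RPKM in those labelled MycER OHT, fell by 1.19 on the log2 scale. Of the 28 calls in all, leaving out MycER OHT replicate 1 gave 16, and leaving out MycER OHT Y27 replicate 2 gave 17. The summed macrophage markers followed the genes here too, at 16.9 to 17.2 RPKM in MycER OHT Y27 libraries against 40.1 to 41.9 RPKM in MycER OHT libraries, and at 44.9 to 53.5 RPKM in YAP2S OHT Y27 libraries against 22.7 to 29.9 RPKM in YAP2S OHT libraries.

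YAP2S cells without treatment differed from MycER cells in 17 of the 34 genes, 6 higher and 11 lower, where 24.8% of all genes were higher and 8.43% lower. Calls that held in every scaling were 2 higher (5.29% of all genes) and 4 lower (3.04%), so that the share higher was near that of all genes. Tfeb, a master regulator of lysosomal genes, had 14.0 and 11.8 RPKM in YAP2S libraries, against 5.31 and 7.0 RPKM in MycER libraries (log2 change 0.96 ± 0.17, adjusted p = 0.00454). Gusb, the lysosomal beta-glucuronidase, had 23.2 and 25.5 RPKM in YAP2S libraries, against 10.4 and 16.5 RPKM in MycER libraries (0.85 ± 0.18, adjusted p = 0.00789). The cysteine protease Ctsb had 41.9 and 40.7 RPKM in YAP2S libraries, against 92.1 and 60.9 RPKM in MycER libraries (-0.84 ± 0.17, adjusted p = 0.00605). Lower in every scaling as well were Ctsl (-1.17 ± 0.29), Lamp2 (-0.53 ± 0.15) and Npc2 (-0.34 ± 0.11). Ctsl had 59.8 and 62.9 RPKM in YAP2S libraries, against 204.2 and 94.3 RPKM in MycER libraries, with the shallowest library at the higher value. The count was 4 without MycER replicate 1, 0 without YAP2S replicate 1 and 2 without YAP2S replicate 2, while quantile normalization left 8 and cyclic loess 7.

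Under Y27 the same contrast gave 16 lower genes and 1 higher, where 5.43% of all genes were lower and 10.6% higher, and 11 of the lower ones held in every scaling (4.49% of all genes), as did the higher one (8.16%). The median change of the 34 was -0.42, against 0.06 over all genes. Lower were 7 of 13 hydrolases, 2 of 5 membrane proteins, 2 of 4 pump subunits, 2 of 5 TFE factors and regulators and 3 of 7 autophagy genes. Gla, with 21.7 and 21.1 RPKM in YAP2S Y27 libraries, against 34.7 and 35.2 RPKM in MycER Y27 libraries, changed by -0.68 ± 0.12 (adjusted p = 0.00274). Ctsa had 41.7 and 39.5 RPKM in YAP2S Y27 libraries, against 69.8 and 56.1 RPKM in MycER Y27 libraries (-0.61 ± 0.11, adjusted p = 0.00351). Map1lc3b, which encodes the autophagosome protein LC3B, had 73.7 and 70.2 RPKM in YAP2S Y27 libraries, against 127.9 and 101.2 RPKM in MycER Y27 libraries (-0.65 ± 0.16, adjusted p = 0.016). Its change was smaller after quantile normalization (-0.28) and cyclic loess (-0.34). Tfeb again was the gene that was higher, at 12.2 and 11.3 RPKM in YAP2S Y27 libraries, against 5.64 and 7.08 RPKM in MycER Y27 libraries (0.80 ± 0.17, adjusted p = 0.00926). The 17 calls became 2 without MycER Y27 replicate 1, 5 without YAP2S Y27 replicate 1, 2 without YAP2S Y27 replicate 2 and 9 when no OHT library was fitted. The summed macrophage markers were lower as well, at 37.7 to 40.5 RPKM in YAP2S Y27 libraries against 44.6 to 53.1 RPKM in MycER Y27 libraries.

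OHT, averaged over all groups as 8 libraries against 8, gave 12 of the 34 genes lower and 1 higher, where 19.3% of all genes were lower and 13% higher. The average does not depend on which population a library of the OHT groups holds. Of the lower genes 10 held in every scaling (16.7% of all genes), as did the higher one (12.6%). The 10 were Gla, Neu1, Hexa, Atp6v0d1, Atp6v1a, Tfeb, Mitf, Fnip1, Map1lc3a and Wipi1. Gusb was the gene that rose, with a lowest, median and highest of 25.2, 35.4 and 49.3 RPKM in the 8 libraries with OHT, against 10.4, 23.6 and 27.2 RPKM in the 8 without (log2 change 0.72 ± 0.09, adjusted p = 0.00012), so that a few libraries overlapped. Neu1 had 7.16, 15.9 and 25.5 RPKM with OHT, against 12.8, 18.4 and 34.9 RPKM without it (-0.40 ± 0.06, adjusted p = 0.000237). Atp6v0d1 had 25.9, 50.1 and 61.7 RPKM with OHT, against 48.4, 52.1 and 69.6 RPKM without it (-0.29 ± 0.04, adjusted p = 0.00049). The lowest OHT value of each was that of a library labelled MycER OHT Y27. By pair of groups, Neu1 changed by -2.03 in libraries labelled MycER under Y27. In the other pairs it changed by 0.32 (MycER), -0.08 (YAP2S) and 0.17 (YAP2S under Y27). In the same order Atp6v0d1 changed by -1.38, 0.02, 0.06 and 0.15, and Gla by -2.09, 0.58, -0.22 and 0.19. Their lower averages thus come mainly from 1 labelled comparison. Tfeb (-0.73, YAP2S under Y27), Mitf (-0.80, YAP2S) and Map1lc3a (-0.53, MycER) were called lower in another pair too.

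In libraries labelled MycER and given Y27, 24 of the 34 genes were lower with OHT and 0 higher, where 33.5% of all genes were lower and 16.6% higher, and 20 held in every scaling (20.6% of all genes). The 24 covered 6 of 13 hydrolases, 4 of 5 membrane proteins, 3 of 4 pump subunits, 5 of 5 TFE factors and regulators and 6 of 7 autophagy genes. Gla had 8.0 and 6.92 RPKM in libraries labelled MycER OHT Y27, against 34.7 and 35.2 RPKM in MycER Y27 libraries (log2 change -2.09 ± 0.12, adjusted p = 2.37e-07). Neu1 had 7.16 and 7.73 RPKM in libraries labelled MycER OHT Y27, against 34.9 and 32.1 RPKM in MycER Y27 libraries (-2.03 ± 0.11, adjusted p = 1.8e-07). Atp6v0d1 had 25.9 and 26.2 RPKM in libraries labelled MycER OHT Y27, against 69.6 and 69.4 RPKM in MycER Y27 libraries (-1.38 ± 0.09, adjusted p = 3.97e-07). Bex1 and Ctgf go against the label in the MycER OHT Y27 libraries, so that OHT, population and Y27 cannot be told apart in this comparison. The summed macrophage markers were also lower, at 16.9 to 17.2 RPKM in MycER OHT Y27 libraries against 44.6 to 53.1 RPKM in MycER Y27 libraries.

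Bex1 goes against the labels of the OHT libraries, so that OHT and population cannot be told apart in the comparisons that follow. In libraries labelled MycER without Y27, 9 of the 34 were higher and 10 lower with OHT, where 31.6% of all genes were higher and 13.3% lower. Of these calls 3 of each held in every scaling (14.6% and 8.81% of all genes). The share of the 34 was thus below that of all genes for higher calls and near it for lower ones. The genes that held were Gusb, Mcoln1 and Flcn, all higher, and Ctsb, Ctsl and Lamp2, all lower. Gusb had 40.3 and 39.1 RPKM in libraries labelled MycER OHT, against 10.4 and 16.5 RPKM in MycER libraries (log2 change 1.53 ± 0.18, adjusted p = 0.000152). YAP2S without treatment also differed from MycER in Gusb (0.85), Ctsb (-0.84), Ctsl (-1.17) and Lamp2 (-0.53), but Mcoln1 and Flcn were not called there. The 19 calls became 12 without MycER replicate 1, and 9 after quantile normalization or cyclic loess. In libraries labelled YAP2S, 1 gene, Mitf, was lower with OHT and 0 were higher, where 8.01% of all genes were lower and 5.76% higher. An unadjusted p below 0.05 was found for 9 of the 34 and for 3704 of all 13028 genes, so that the shares were near each other. The call of Mitf held in every scaling, as 6.4% of all genes did, a larger share than 1 of the 34. That count was 5 without MycER replicate 1 or MycER replicate 2, 2 without YAP2S OHT Y27 replicate 1 or YAP2S OHT Y27 replicate 2, and 0 without YAP2S replicate 1, YAP2S replicate 2, YAP2S OHT replicate 1 or YAP2S OHT replicate 2. Under Y27 without OHT, YAP2S cells differed from MycER cells in Ctsa (-0.61), Ctsb (-0.78) and Tfeb (0.80), while Gusb was not called. Under Y27, Ctsa, Ctsb and Gusb were higher and Tfeb lower with OHT in libraries labelled YAP2S, where 5% of all genes were higher and 10% lower. The 4 calls held in every scaling (4.65% of all genes higher and 8.24% lower). Those 4 became 7 without MycER replicate 1 or MycER replicate 2, and 0 without YAP2S Y27 replicate 1, YAP2S Y27 replicate 2 or YAP2S OHT Y27 replicate 1.

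The 3 TFE factors did not share 1 pattern. Tfeb was highest in YAP2S libraries, at 14.0 and 11.8 RPKM, and YAP2S Y27 libraries, at 12.2 and 11.3 RPKM, and these groups overlapped. It was lowest in libraries labelled MycER OHT Y27, at 4.70 and 3.32 RPKM. Y27 did not give a call for it in either population without OHT, with a log2 change of -0.12 ± 0.17 in YAP2S cells and of 0.04 ± 0.17 in MycER cells. Tfe3, the most abundant of the factors per length, had 39.3 and 31.3 RPKM in libraries labelled YAP2S OHT Y27 and 13.3 RPKM in both libraries labelled MycER OHT Y27, its highest and lowest groups by mean. Mitf, the factor known for its role in pigment cells, stayed between 0.314 and 2.43 RPKM. Its libraries had 2.43 and 2.37 RPKM in MycER Y27, against 0.932 and 0.953 RPKM in MycER (log2 change of RPKM + 1, which understates so low a gene, 0.81 ± 0.18, adjusted p = 0.00943).

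**Figure D3:**
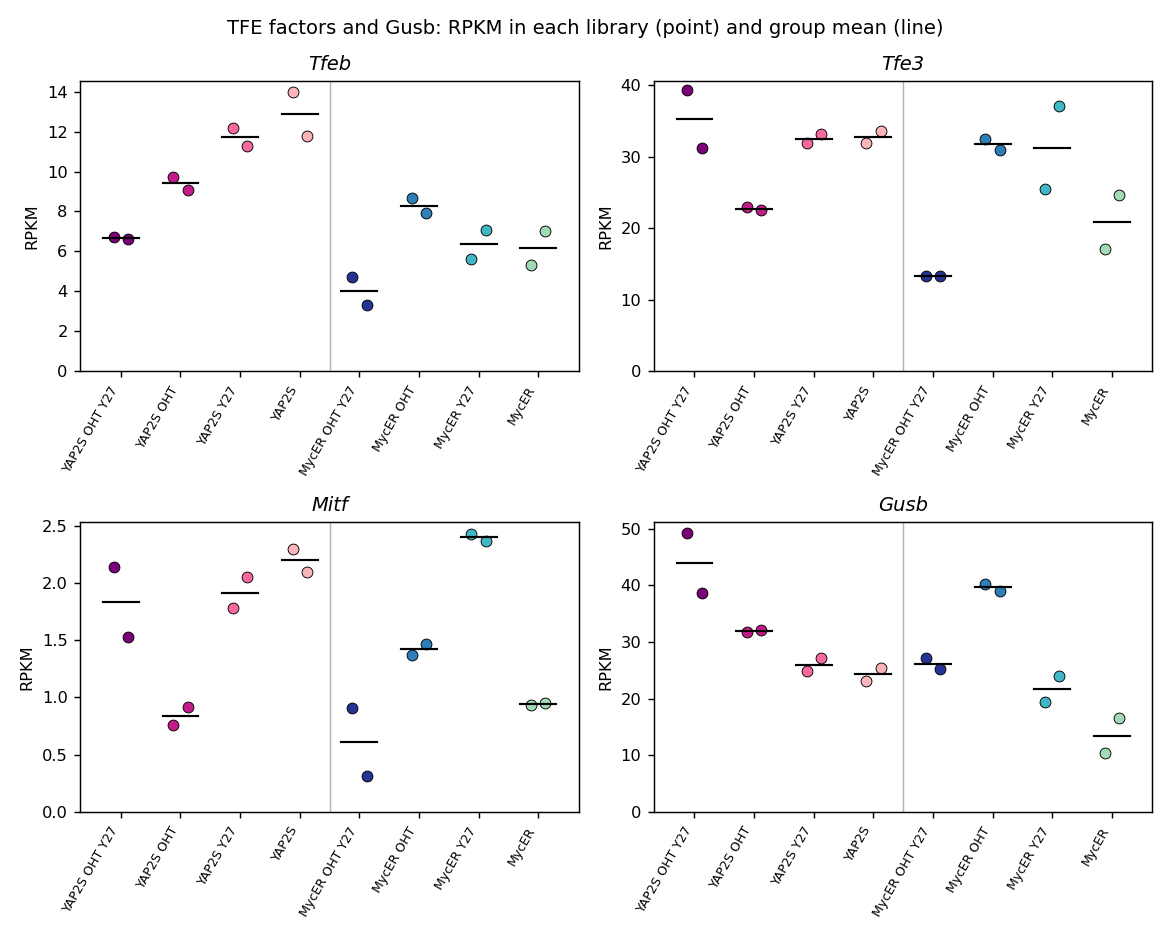
RPKM (vertical axes, from 0) of Tfeb, Tfe3, Mitf and Gusb in each library (points) by labelled group (horizontal axes), with lines for group means. Tfeb is highest in the 4 YAP2S libraries without OHT, at 11.3 to 14.0 RPKM, and Gusb has 25.2 to 49.3 RPKM in the 8 libraries with OHT, against 10.4 to 27.2 RPKM in the others.

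High values need separate reading, because several of them fell as depth rose. Of the 34 genes 7 exceeded 1 read per base in some library: Ctsd, Psap, Lamp1, Atp6ap1 (an accessory subunit of the pump), Sqstm1, Map1lc3b and Gabarapl1. Lamp1 had 268.4 RPKM in MycER replicate 1, at 1.76 M reads, and 79.8 RPKM in MycER OHT replicate 1, at 15.71 M reads. Among these 7, YAP2S without treatment was lower than MycER in 6, with 0 held in every scaling and a median of -0.89, against -0.08 after quantile normalization. OHT in MycER cells was likewise lower in 6 of the 7, with 0 held and medians of -0.95 and 0.00. YAP2S under Y27 was lower than MycER under Y27 in 5 of the 7, with 2 held and medians of -0.69 and -0.18. For Y27 in MycER cells the other 27 genes gave 15 of the 16 calls, with medians of 0.49 as deposited and 0.37 after quantile normalization.

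**Figure D4:**
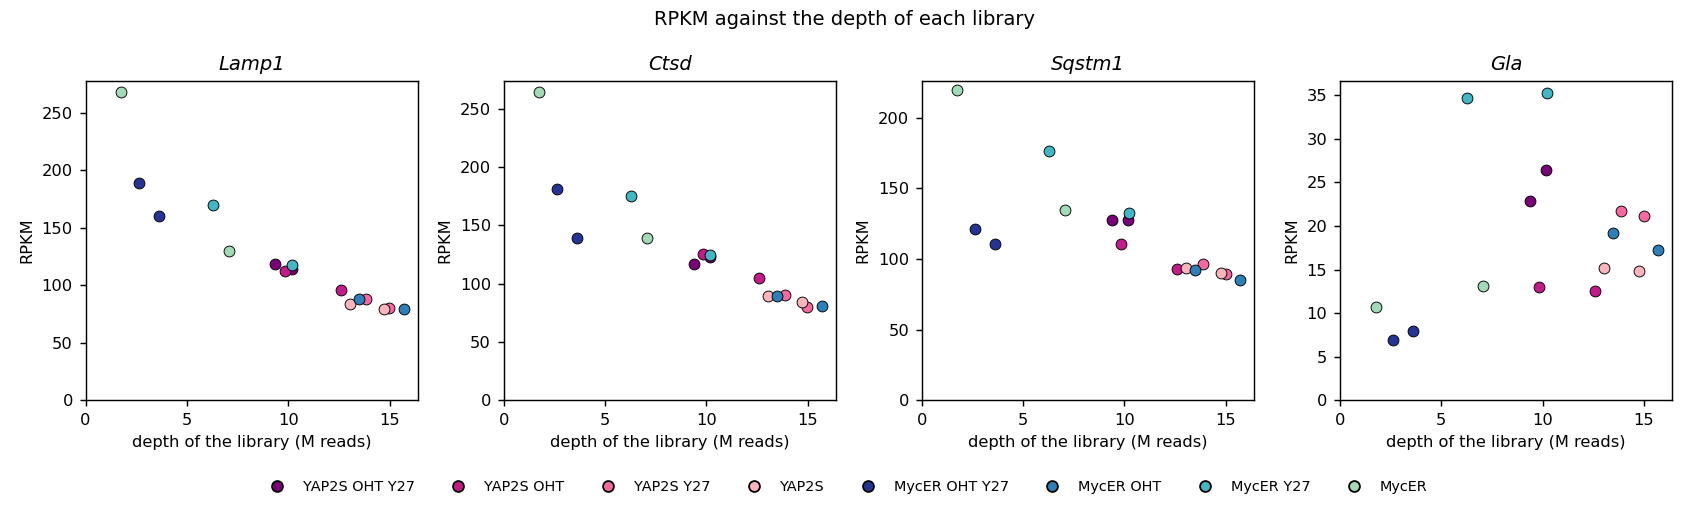
RPKM (vertical axes, from 0) of Lamp1, Ctsd, Sqstm1 and Gla against the depth of each library in M reads (horizontal axes), 1 point per library coloured by labelled group. Lamp1 has 268.4 RPKM at the lowest depth and 79.8 RPKM at the highest, whereas Gla has 10.7 and 17.2 RPKM in those libraries.

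The remaining members are given by range and by calls. Ctsz, a carboxypeptidase, and Glb1, the beta-galactosidase, were called in 0 of the 12 comparisons, at 52.5 to 78.4 RPKM and 5.93 to 15 RPKM over the 16 libraries. Gaa, which breaks down glycogen, at 19.3 to 50.7 RPKM, and Ulk1, the kinase that starts autophagy, at 9.06 to 26.8 RPKM, were called in the 2 comparisons of libraries labelled MycER OHT Y27, lower in each. Atp6v1h, a regulatory subunit of the pump at 11 to 22.2 RPKM, was lower in those 2 comparisons and with OHT over all groups. Uvrag, a partner of the lipid kinase that acts in autophagosome and endosome maturation, had 16.5 and 18 RPKM in MycER Y27 libraries, against 11 and 13.4 RPKM in MycER libraries (log2 change 0.48 ± 0.11, adjusted p = 0.0134). It was also called higher in YAP2S without treatment (0.47) and with OHT in libraries labelled MycER (0.53). In libraries labelled MycER OHT Y27 it was called lower, against MycER Y27 (-0.48) and against MycER OHT (-0.53). None of these calls held in every scaling.

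A wider list of 128 other genes of the same pathways, of which 121 were tested, was also chosen with earlier results known, so its shares are a description. It gave 43 higher (35.5%) and 0 lower for Y27 in MycER cells, against 13.4% and 4.47% of all genes. Of the 43, 29 held in every scaling, as 6.19% of all genes did, and the median log2 change of the list was 0.40, against 0.12 over all genes. Among them Fnip2, the paralogue of Fnip1, changed by 1.45 ± 0.12 (adjusted p = 1.28e-05), the cystine exporter Ctns by 1.44 ± 0.16 (adjusted p = 0.000105) and Rragd, a Rag GTPase, by 1.27 ± 0.18 (adjusted p = 0.000637). Atg14, a subunit of the kinase complex that starts autophagosomes, changed by 1.26 ± 0.19 and the chloride carrier Clcn7 by 0.96 ± 0.09. In YAP2S cells the list gave 1 higher (0.826%) and 0 lower, Fnip2, at 0.79 ± 0.12 (adjusted p = 0.00972), against 0.407% and 0.261% of all genes, so that its share is near the background. YAP2S without treatment gave 25 higher (20.7%) and 15 lower (12.4%), shares near those of all genes, 24.8% and 8.43%. Under Y27 it gave 2 higher (1.65%) and 25 lower (20.7%), against 10.6% and 5.43% of all genes, and 22 of the lower held in every scaling. OHT over all groups gave 6 higher (4.96%) and 38 lower (31.4%), against 13% and 19.3% of all genes, with 6 and 31 held. In the interaction of population and Y27 limma called 0 of the 121, where 0.361% of all genes were called higher and 0.207% lower. The median difference was -0.36, against -0.13 over all genes. An unadjusted p below 0.05 was found for 31 of the 121 and for 1620 of all 13028 genes.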

How the data were processed

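RNA was sequenced from 16 libraries of mouse embryonic fibroblasts, made with a TruSeq kit whose poly-T selection was skipped. The submitters' processing notes name TopHat2 2.0.8, TopHat, SAMtools, featureCounts 1.4.5-p1 and build mm9, while annotation, strand setting and duplicate removal are not given in the sources used here. The values the authors deposited are RPKM per gene, a unit inferred from the values, and carry no coordinates. Low values are whole multiples of 1 step per gene, from which the reads were recovered (100% of values within 0.01 read of a whole number), and depth with them. Depth found in 2 ways differed by at most 0.007%.

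Genes were kept at 1 RPKM or more in at least 2 libraries, and log2(RPKM + 1) was fitted in limma 3.58.1 (R 4.3.3) over all libraries, giving each group its own coefficient. The variance followed a trend in mean level, and 8 degrees of freedom were left. Tests were two-sided, with Benjamini-Hochberg adjustment over all 13028 genes within each of 12 comparisons and a threshold of 0.05. Comparisons that share a group share its errors. The fit was tested on simulated data. The correction for duplicates takes each position and strand to keep at most 1 read. Tables used Python 3.11.15, pandas 2.3.3 and numpy 2.4.6.

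Alternatives were another pseudocount, other filters, quantile normalization, cyclic loess, voom on recovered reads, a replicate block, only the libraries compared, and leaving out each library. Voom on duplicate-corrected reads and the fit without the OHT libraries were added after the data were seen. The 34 genes and the wider lists were chosen with earlier results of these data known. By rule every member is covered, with values for those called in several comparisons, the TFE factors and regulators and the abundant ones of each role, and for wider lists at most 4 genes per list, by size of change among those called. Bex1, Ctgf and Yap1 check the labels.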

Additional observations from a re-analysis of the deposited data

Results flagged for a closer look

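The response of Gla to Y27 without OHT differed between the populations by an interaction test, by -1.0 on the log2 scale (YAP2S minus MycER).

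Under OHT, 8 of the 34 genes were called in opposite directions with Y27 in libraries labelled YAP2S and MycER. Of all 13028 genes, 1481 and 6104 were called in these comparisons, and those called in opposite directions were not counted. The difference between these responses was not tested. The log2 change was 0.90 in YAP2S and -1.19 in MycER for Gla, and 0.70 in YAP2S and -1.13 in MycER for Neu1. For Tpp1 it was 0.65 in YAP2S and -0.46 in MycER, and for Ctsa 0.47 in YAP2S and -0.38 in MycER. Mcoln1 had 0.67 in YAP2S and -1.23 in MycER, Mitf 0.62 in YAP2S and -0.61 in MycER, Flcn 0.81 in YAP2S and -1.31 in MycER, and Fnip1 0.58 in YAP2S and -0.91 in MycER. With OHT under Y27, Ctsa changed by 0.45 in libraries labelled YAP2S and by -0.99 in those labelled MycER, which was not tested either. Bex1 goes against the labels of all these OHT libraries. Ctgf, which was lower with Y27 in the other pairs of groups, had 145.0 and 154.9 RPKM in libraries labelled MycER OHT Y27, against 67.1 and 60.8 RPKM in those labelled MycER OHT, so that the sign of the MycER changes rests on a Y27 label in doubt.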

How the results depend on the processing

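Of 149 changes of single genes that were called, 100 kept direction and call after quantile normalization and 101 after cyclic loess. By voom 125 did on recovered reads and 124 on duplicate-corrected ones, 146 with a pseudocount of 0.1, 139 without a filter and 142 of 142 tested with a filter at 5 RPKM. With only the libraries compared 72 of 136 did, and without the OHT libraries 36 of 52. Scaling moved the median of all genes: for Y27 in MycER cells it was 0.12 as deposited and -0.01 after quantile normalization, and relative to it the median of the 34 was 0.31 and 0.34.

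Counts of called genes among the 34 moved as follows, and counts over all genes moved too. For Y27 in YAP2S cells (1) they were 4 by quantile normalization, 2 by cyclic loess, 4 by voom on recovered reads, 5 by voom on corrected reads, 8 with only the libraries compared and 0 without the OHT libraries. Over all genes 87 became 320, 195, 507, 595, 1403 and 13, in that order. For OHT in YAP2S cells (1) they were 0 with a filter at 5 RPKM. They were 6, 3, 6 and 7 in the same 4 settings and 17 with only the libraries compared. Over all genes 1793 became 2590, 2124, 3349 and 3559 in those 4 settings, and 6015 of 13028 with only the libraries compared. For Y27 in YAP2S cells under OHT (8) they were 19, 14, 14 and 15 in these 4 settings, where over all genes 1481 became 2348, 2214, 2653 and 2876. For YAP2S without treatment (17) they were 8 by quantile normalization and 7 by cyclic loess, where over all genes 4334 became 2057 and 1984. For OHT in MycER cells (19) they were 9 by each and 2 with only the libraries compared. Over all genes 5851 became 5110, 5052 and 770 there. OHT in YAP2S cells under Y27 (4) had 9 by quantile normalization, where over all genes 1955 became 2856. Y27 in MycER cells under OHT (28) had 18 by cyclic loess and 17 by voom on corrected reads, where over all genes 6104 became 4270 and 4134. YAP2S under Y27 (17) had 9 without the OHT libraries, where over all genes 2083 became 1596. The interaction (1) had 2 without a filter and 0 without the OHT libraries. With only the libraries compared 0 were called for Y27 in MycER cells, YAP2S without treatment, the interaction, OHT in YAP2S cells under Y27 and Y27 in YAP2S cells under OHT, in fits with fewer samples. The cause of the other moves was not tested.

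Leaving out 1 library gave 11 to 25 calls for Y27 in MycER cells, 0 to 2 for Y27 in YAP2S cells, 0 to 22 for YAP2S without treatment, 2 to 21 for YAP2S under Y27 and 0 to 13 for the interaction. For OHT it gave 10 to 17 over all groups, 12 to 22 in MycER cells, 0 to 5 in YAP2S cells, 21 to 27 in MycER cells under Y27 and 0 to 7 in YAP2S cells under Y27. For Y27 under OHT it gave 16 to 30 in MycER cells and 3 to 13 in YAP2S cells. A group left with 1 library is assumed to vary like the others.

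Called changes that reversed, by quantile normalization and then cyclic loess, were for YAP2S without treatment Atp6ap1 (0.03 and 0.02), and by quantile normalization alone Sqstm1 (0.06) and Map1lc3a (0.01). For OHT in MycER cells they were Neu1 (-0.06 and -0.05), Atp6ap1 (0.18 and 0.12), and by quantile normalization alone Sqstm1 (0.08) and Map1lc3b (0.00). For Y27 in MycER cells under OHT they were Ctsd (-0.11 and -0.06), Psap (-0.11 and -0.06), Atp6v1h (0.04 and 0.01), Atp6ap1 (-0.32 and -0.32), and by quantile normalization alone Lamp1 (-0.01). The cause was not tested.

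Replicate numbers did not pair the libraries: deviations of same-numbered libraries correlated at -0.33 to 0.43, median -0.02, with 8 of 28 pairs of groups above 0.1. With the number as a replicate block 143 of the 149 kept their call, and counts were 15, 1, 17, 16, 1, 12, 18, 1, 24, 3, 28 and 7, in the order of the ranges above.

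The share of calls that were higher, among all genes called, was 74.9% as deposited and 51.7% after quantile normalization for Y27 in MycER cells, 74.7% and 47.9% for YAP2S without treatment, 66.0% and 50.8% under Y27, 63.5% and 86.5% for the interaction, 70.4% and 48.2% for OHT in MycER cells, 33.1% and 50.3% there under Y27, 33.4% and 49.8% for OHT in YAP2S cells under Y27, and 22.3% and 49.7% for Y27 in MycER cells under OHT. With 2 libraries per group, the lack of a call does not show a lack of change.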
